A study of Mus musculus with 3 samples.

Results

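Jejunal-type mature enterocytes were examined in single-cell libraries of intestinal crypt preparations from mice. A cell was taken as a member when it had at least 1 UMI (unique molecular identifier, a counted transcript molecule) of at least 4 of the 6 genes Cubn, Slc5a4b, Dnase1, Bst1, Leap2 and Ace, and more of these genes than of the 6 opposing genes Akp3, Slc40a1, Tmprss15, Otop3, Sult6b2 and Gm2061. Of 25554 barcodes in the files, 5594 had at least 1000 genes and at most 15% of their UMIs from mitochondrial genes, and 1231 of those 5594 cells were members: 443 in Arid3a cKO replicate 1, 307 in Arid3a cKO replicate 2 and 481 in the WT library. The members were thus chosen by the detection of these 12 rule genes, so their levels in the members are given as a description and were not tested between classes.

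The 2 Arid3a cKO libraries came from VillinCreERT2 mice with floxed Arid3a alleles, and the WT library from mice with VillinCreERT2 alone. Villin drives the recombinase in intestinal epithelium. All animals, controls included, carried the Cre driver and received tamoxifen at 8 to 10 weeks of age, and the intestines were collected 1 month after the first dose. Crypts were dissociated and live cells were sorted as Epcam+, CD45- and CD31-, so immune and endothelial cells should be largely absent, and villus cells entered only as far as the crypt preparation carried them. With 1 WT library, genotype and library cannot be told apart. The p-values below rest on the spread between the 2 cKO libraries and on variance shared across genes. The spread between WT libraries was not measured. The labels do not give the exons that were floxed. Arid3a, which encodes an AT-rich DNA binding protein, had 10, 13 and 30 UMIs in the members of cKO replicate 1, cKO replicate 2 and the WT library, or 0.708, 1.19 and 1.86 CPM (counts per 1000000 UMIs of the class), and 3′ counts need not fall in the deleted part.

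Absorptive enterocytes of the small intestine change along 2 axes. Along the length of the gut, the duodenum takes up much of the calcium and iron, the jejunum digests and absorbs most of the sugar, fat and peptides, and the ileum recovers bile acids and vitamin B12. Along the villus, cells climb from the crypt to the tip and move from an antimicrobial programme near the base to lipoprotein and nutrient transport higher up.

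The members had UMIs of 4, 5 or 6 of the jejunal genes in 112, 218 and 113 cells of cKO replicate 1, in 83, 146 and 78 cells of cKO replicate 2 and in 130, 219 and 132 cells of the WT library. Their median depth was 31530, 36099 and 31501 UMIs per cell and 4663, 4848 and 4673 genes, with 6.22%, 5.48% and 6.56% of UMIs from mitochondrial genes (here and below in the order cKO replicate 1, cKO replicate 2, WT). Summed over the members this gave 14125550, 10931949 and 16091174 UMIs. No barcode of a member was shared between libraries. A pair of other classes served for comparison. The opposing enterocytes met the mirror image of the rule (236, 235 and 131 cells), and the stem comparison cells had at least 3 genes of a stem-cell list and at most 1 of the 12 rule genes (491, 350 and 443 cells). The stem comparison cells also held much Paneth cell RNA, with the defensin gene Defa24 at 45800, 21105 and 23643 CPM. They are therefore not a pure stem cell class.

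Leap2, a small antimicrobial and ghrelin-receptor-binding peptide, was the most abundant of the 6 jejunal rule genes in the members, at 874, 1109 and 852 CPM, against 408, 508 and 514 CPM in the opposing enterocytes and at most 3.99 CPM in the stem comparison cells. The choice of all these classes used Leap2, so its gap between them was set in part by the rules. Ace, the peptidase angiotensin-converting enzyme of the brush border, was at 373, 334 and 301 CPM. Dnase1, a secreted endonuclease, was at 251, 154 and 184 CPM. Bst1, an ectoenzyme that makes cyclic ADP-ribose, was at 146, 175 and 134 CPM. Slc5a4b, a member of the sodium-glucose transporter family, was at 111, 70.6 and 84.7 CPM. Cubn, which encodes cubilin, the membrane receptor that takes up the intrinsic factor and vitamin B12 complex, was the least abundant, at 56.6, 50.1 and 46.5 CPM. For Dnase1 and Slc5a4b the WT library lay between both cKO libraries, whereas for the other 4 genes it was the lowest.

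Cubn was therefore not detected in most members. A Cubn UMI was present in 30.9% (95% exact interval 26.6 to 35.5), 39.4% and 37.8% of members. In the stem comparison cells it was present in 1.22%, 0.286% and 0.903%, at median depths of 30660, 36627 and 29752 UMIs. Cubn was one of the genes that chose the members, and a stem comparison cell could have at most 1 of the rule genes. The gap in Cubn detection was therefore set by how both classes were chosen. Leap2 was detected in at least 99.3% of the members of each library. Of Cubn's partners, Amn, which encodes the membrane anchor amnionless, was at 189, 170 and 167 CPM. Lrp2 and Dab2, the endocytic partners known from the kidney tubule, had 0 UMIs in all 3 libraries, which allows up to 0.212, 0.274 and 0.186 CPM (3 counts per library). Tcn2, the transport protein that carries vitamin B12 in blood, was at 289, 280 and 282 CPM.

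Both remaining label genes stood outside the rule. Lct, lactase, which splits milk sugar at the brush border, was at 712, 729 and 659 CPM in the members and at 241, 333 and 330 CPM in the opposing enterocytes. Apoa4, an apolipoprotein of chylomicrons, was at 6495, 6569 and 4596 CPM in the members and at 2007, 2684 and 2133 CPM in the opposing enterocytes. In the stem comparison cells Lct stayed at 9.13 CPM or less and Apoa4 at 35.8 CPM or less. Within the members the spread between cells was wide. The middle 80% of cells ran from 215 to 1439 CPM of Lct in cKO replicate 1, from 254 to 1530 CPM in cKO replicate 2 and from 183 to 1325 CPM in the WT library. Cells with all 6 jejunal genes held more than cells with 4: Lct was at 1068, 1014 and 894 CPM in the former and at 438, 505 and 439 CPM in the latter. The median depth was 29384, 34678 and 30580 UMIs in the former and 33506, 33583 and 31117 UMIs in the latter.

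**Figure D1:**
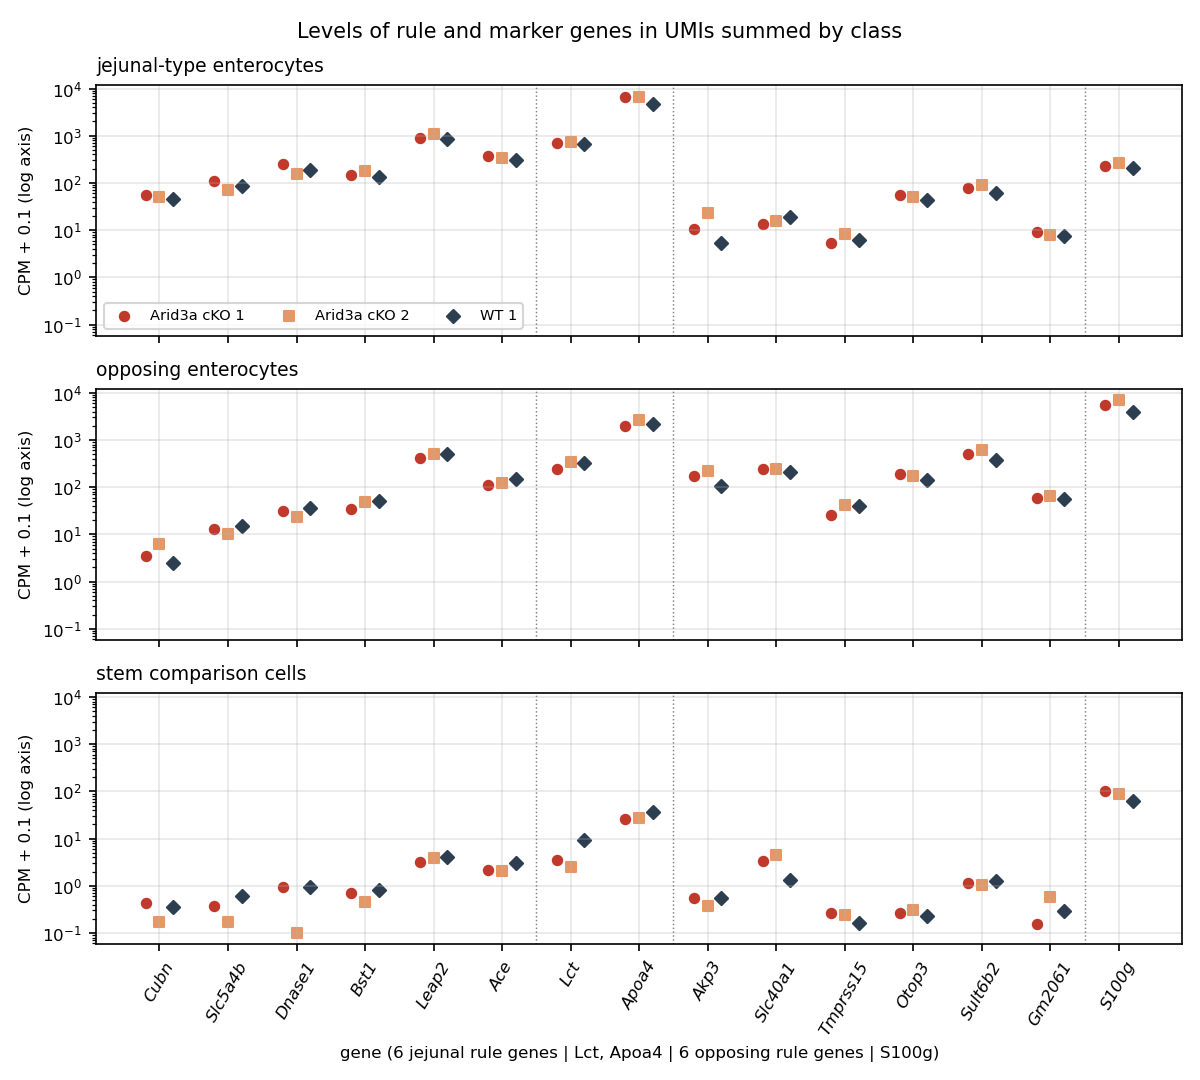
Level of the 12 rule genes, Lct, Apoa4 and S100g in UMIs summed over the jejunal-type enterocytes, the opposing enterocytes and the stem comparison cells, as CPM + 0.1 on a log axis, with 1 point per library. Lct and Apoa4, which the rule did not use, were higher in the jejunal-type than in the opposing enterocytes of each library, and S100g was lower.

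Just outside the rule lay 89, 53 and 107 cells with 3 jejunal genes and fewer opposing ones. They held Lct at 219, 303 and 229 CPM and Apoa4 at 1878, 2991 and 1775 CPM, below the members with 4 jejunal genes, whose Apoa4 was at 3624, 4188 and 3026 CPM. Another 47, 45 and 40 cells had 4 or more jejunal genes and as many opposing ones, with Lct at 481, 659 and 482 CPM. The opposing genes were not absent from the members: only 12.4%, 9.12% and 17.5% of members had none of the 6.

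The sequence upstream of the transcription start is shown for Lct, as the gene that names the class outside the rule, for Ace from the jejunal set, and for Akp3 and Tmprss15 from the opposing set, so that the sites searched can be read in place. Akp3 encodes an intestinal alkaline phosphatase and Tmprss15 the enteropeptidase that activates trypsin in the duodenum. Letters were searched on both strands for factors known in enterocytes (GTTAAT for HNF1, CAAAGTC for HNF4, TTTATG for CDX2 and AGATAA for GATA4). The AT-rich letters ATTAAA were searched as well. Capitals mark the matches, in the orientation in which they lie. The sequences are the 250 bases before the RefSeq start (GRCm38.p6), written 5′ to 3′ on the strand of the gene: Lct at chr1:128328319-128328568 on the minus strand, Ace at chr11:105967698-105967947 on the plus strand, Akp3 at chr1:87124704-87124953 on the plus strand and Tmprss15 at chr16:79091098-79091347 on the minus strand.
Lct: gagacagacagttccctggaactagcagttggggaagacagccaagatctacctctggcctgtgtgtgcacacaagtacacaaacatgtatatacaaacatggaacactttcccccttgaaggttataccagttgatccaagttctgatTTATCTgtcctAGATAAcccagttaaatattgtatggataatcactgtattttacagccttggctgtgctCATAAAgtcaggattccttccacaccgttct
Ace: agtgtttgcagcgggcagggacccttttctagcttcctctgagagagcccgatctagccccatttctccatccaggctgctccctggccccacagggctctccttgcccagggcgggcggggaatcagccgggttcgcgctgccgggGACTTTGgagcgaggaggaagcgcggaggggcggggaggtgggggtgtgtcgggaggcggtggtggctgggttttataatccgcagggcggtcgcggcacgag
Akp3: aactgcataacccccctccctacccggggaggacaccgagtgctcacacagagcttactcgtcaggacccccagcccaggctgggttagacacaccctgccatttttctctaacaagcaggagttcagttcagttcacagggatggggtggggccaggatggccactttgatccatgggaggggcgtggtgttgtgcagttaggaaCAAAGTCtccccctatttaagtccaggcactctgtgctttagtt
Tmprss15: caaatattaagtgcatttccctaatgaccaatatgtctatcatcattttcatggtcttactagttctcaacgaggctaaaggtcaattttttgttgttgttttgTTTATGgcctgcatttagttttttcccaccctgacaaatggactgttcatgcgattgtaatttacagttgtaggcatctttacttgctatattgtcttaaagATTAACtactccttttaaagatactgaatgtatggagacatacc
The Lct window held the GATA4 letters 101 and 90 bases before the start and the CDX2 letters 31 bases before it. The Ace window held the HNF4 letters 103 bases before the start, and the Akp3 window held them 44 bases before it. The Tmprss15 window held the CDX2 letters at 146 bases and the HNF1 letters at 44 bases. Such short strings are common: of 32851 RefSeq windows of 300 bases, 7.10% held the HNF1 letters, 4.44% the HNF4 letters, 11.9% the CDX2 letters and 11.2% the GATA4 letters. Windows were found for 10 of the 14 rule and label genes, and in them the HNF1 letters occurred in 1 of 6 jejunal or label genes and 2 of 4 opposing genes, the HNF4 letters in 1 and 1, the CDX2 letters in 2 and 1 and the GATA4 letters in 1 and 1. The AT-rich letters occurred in 0 of the 6 and 0 of the 4, and in 13.9% of the 32851 windows. The genes with no window were Bst1, Leap2, Slc40a1 and Gm2061. A match is a description of the sequence, and binding was not measured.

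Other regional and villus markers place the members. The ileal bile acid genes Fabp6 and Slc10a2 were near 0 (at most 0.435 and 1.06 CPM), while Gata4, a proximal transcription factor, was at 43.8, 38.7 and 49.97 CPM. The duodenal calcium-binding protein S100g was at 233, 262 and 208 CPM in the members and at 5616, 6962 and 3883 CPM in the opposing enterocytes. The general enterocyte gene Sis, sucrase-isomaltase, was abundant, at 3387, 2716 and 3094 CPM. So was Fabp1, a fatty acid carrier and a marker of the proximal gut, at 29286, 28030 and 23567 CPM. The ileal genes Fabp6 and Slc10a2 were thus at or near 0, and the rest of the ileal list is not given here. Of the proximal markers, S100g was low against the opposing enterocytes but above the stem comparison cells (104, 86.4 and 62.7 CPM). Fabp1 and Gata4 were present, and the rest of the proximal list is not given here. These levels alone do not separate jejunal from duodenal cells. The tissue was labelled only as intestine, so the position of a cell along the gut was not measured.

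Compared with the opposing enterocytes of the same library, the members held more RNA of fat and peptide handling genes and less of calcium and iron handling genes. These are ratios between classes that were cut from the same cells by the rule, and no test was made of them. Of 23 fat uptake and chylomicron genes outside the rule, 20 were higher in the members of all 3 libraries, with a median log2 ratio of 0.70, 0.54 and 0.44. Of 16 peptide digestion and amino acid uptake genes, 15 were higher in all 3, with medians of 0.97, 0.75 and 0.70. Of 15 carbohydrate genes 12 were higher in all 3, but by less, with medians of 0.27, 0.32 and 0.27. Of 7 calcium and iron genes 6 were lower in all 3, with medians of -0.97, -0.84 and -0.90. Over the 8165 genes at a mean of at least 5 CPM the medians lay between -0.04 and 0.05, and 2315 genes were higher and 2103 lower in the members of all 3 libraries.

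Among genes at a mean of at least 50 CPM over the 6 class sums (2512 genes), 9 were at least 2-fold higher and 13 at least 2-fold lower in the members of all 3 libraries. The 10 genes named as higher were led by Reg3a, a C-type lectin of antimicrobial defence, at 954, 757 and 632 CPM in the members against 127, 159 and 155 CPM. Cndp2, a cytosolic dipeptidase, followed at 379, 322 and 346 CPM against 100, 105 and 116 CPM. Lap3 and Anpep, which also cut amino acids from peptides, were higher too, with Anpep, aminopeptidase N, at 1522, 1315 and 1401 CPM against 566, 543 and 699 CPM, just under 2-fold in the WT library. Selenop, a selenium carrier, was at 1750, 1747 and 1219 CPM against 510, 604 and 465 CPM. The sphingosine phosphate lyase gene Sgpl1, the lysoplasmalogenase gene Tmem86a, the trypsin inhibitor gene Spink1, Reg3b and Apoa4 completed the list of 10.

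The lower genes were led by S100g, with log2 ratios of -4.56, -4.70 and -4.19, and Atp2b1, the basolateral calcium pump, at 163, 165 and 148 CPM against 669, 641 and 532 CPM. Alpi, intestinal alkaline phosphatase, was at 541, 602 and 534 CPM against 1370, 1501 and 1336 CPM. The sulphate transporter Slc13a1, the bicarbonate transporter Slc4a7, the manganese transporter Slc30a10, the mucosal glycoprotein Dmbt1, the lectin Reg1, the RNA Plut and the pancreatic colipase gene Clps were also lower in all 3 libraries. Clps differed between libraries within the members (7.22, 6.31 and 44.2 CPM), with the WT library higher than both cKO libraries. In the opposing enterocytes it was at 67.3, 30.1 and 361 CPM, where Paneth cell markers summed to 9475, 250 and 40448 CPM. In the stem comparison cells Clps was at 681, 294 and 330 CPM and Dmbt1 at 793, 1096 and 1013 CPM. The part of Paneth cell RNA in these class differences was not tested.

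**Figure D2:**
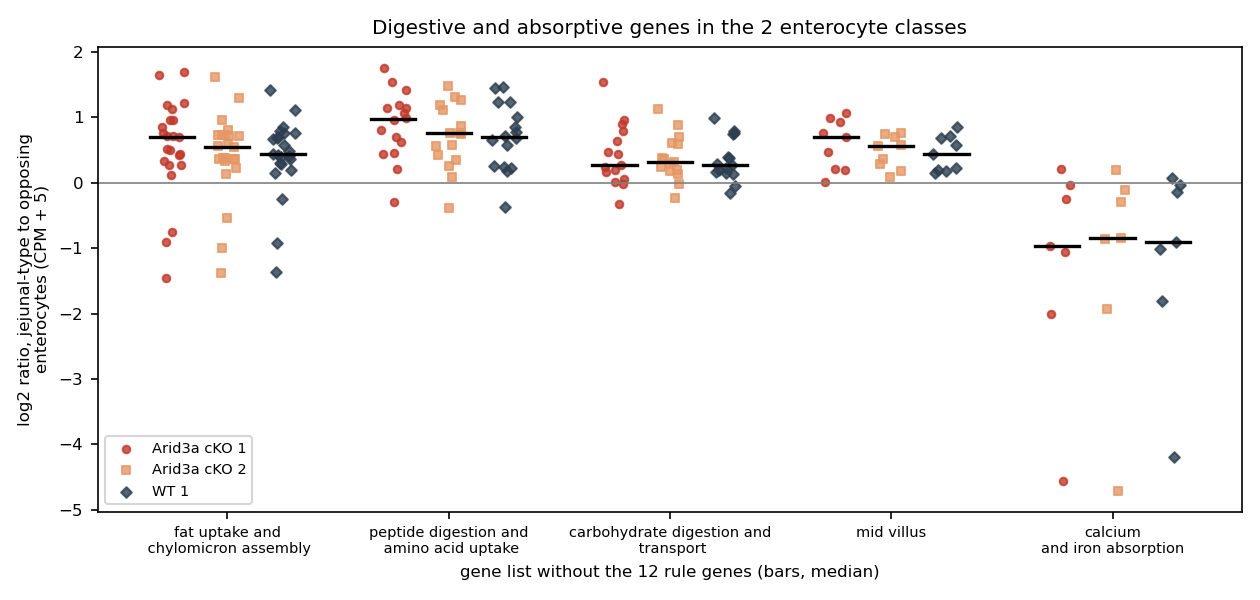
Log2 ratio of the level in the jejunal-type enterocytes to that in the opposing enterocytes of the same library (CPM + 5), with 1 point per gene and library and a bar at each median, for 5 gene lists without the 12 rule genes. The medians of the fat and peptide lists lay between 0.44 and 0.97, and those of the calcium and iron list between -0.97 and -0.84.

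The members were a smaller share of the kept cells in both cKO libraries than in the WT library. They made up 20.8% (95% exact interval 19.1 to 22.5) of 2134 kept cells in cKO replicate 1, 19.8% (17.8 to 21.9) of 1550 in cKO replicate 2 and 25.2% (23.2 to 27.2) of 1910 in the WT library. The opposing enterocytes went the other way, at 11.1%, 15.2% and 6.86%, so that the members were 65.2%, 56.6% and 78.6% of both classes together. The stem comparison cells were at 23.0%, 22.6% and 23.2%. The intervals cover counting error in each library only. A permutation of the library labels cannot give a one-sided p below 0.333 with 2 libraries against 1, and no test of the share was made.

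Depth, filters and the opposing genes bore on the size of this gap. With each cell thinned to 21000 UMIs, which left out 59, 41 and 64 members, the share was 19.5%, 18.7% and 24.8%. Without the comparison to the opposing genes, the mean share of the cKO libraries lay 2.62 percentage points below that of the WT library in place of 4.90. S100g over both enterocyte classes together was at 2233, 3253 and 1033 CPM. This pooled level depends on the class sizes, since the opposing enterocytes held far more S100g than the members. Within the opposing enterocytes alone it was at 5616, 6962 and 3883 CPM, and within the members at 233, 262 and 208 CPM. Its part in the gap was not tested. Barcodes kept were 31.2%, 22.5% and 16.2% of those in the files, and 66.4%, 75.6% and 79.2% of barcodes were over the mitochondrial limit; the part of this loss in the shares was not tested.

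**Figure D3:**
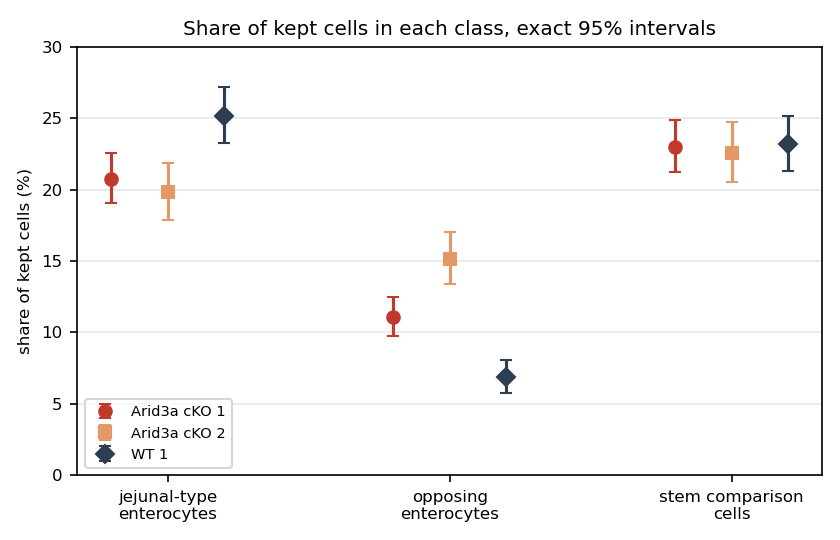
Share of kept cells in each class, in percent, with exact 95% binomial intervals, for the 3 libraries. The jejunal-type enterocytes were at 20.8% and 19.8% in the cKO libraries and 25.2% in the WT library, and the opposing enterocytes at 11.1% and 15.2% against 6.86%.

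Before genes were compared between cKO and WT, the members were checked for RNA of other cell types. The goblet markers summed to 3114, 3679 and 5089 CPM, the Paneth markers to 346, 306 and 7161 CPM and the enteroendocrine markers to 46.7, 288 and 1726 CPM, so the WT members stood apart in Paneth and enteroendocrine RNA. A few cells carried it. In 6, 12 and 31 members over 0.5% of UMIs came from the goblet, Paneth, enteroendocrine and tuft lists, and these cells held 84.4%, 90.4% and 95.5% of such UMIs, while the median member had 0.0503%, 0.0388% and 0.0615% of its UMIs from them. Of the 5% of kept cells with the highest Scrublet doublet scores in each library, 21, 27 and 39 were members. Without those 49 cells, 3.98% of the class, the Paneth markers were at 295, 208 and 326 CPM and the enteroendocrine markers at 45.0, 38.6 and 60.5 CPM. The 8 immune markers summed to 0.566, 0.0915 and 0.621 CPM and the 6 stromal and endothelial markers to 0.637, 0.549 and 0.311 CPM. The comparison without these 49 members, and without 15 such opposing cells, was chosen after seeing the data, and its counts are given beside the main ones. No such cells were left out of the stem comparison cells.

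**Figure D4:**
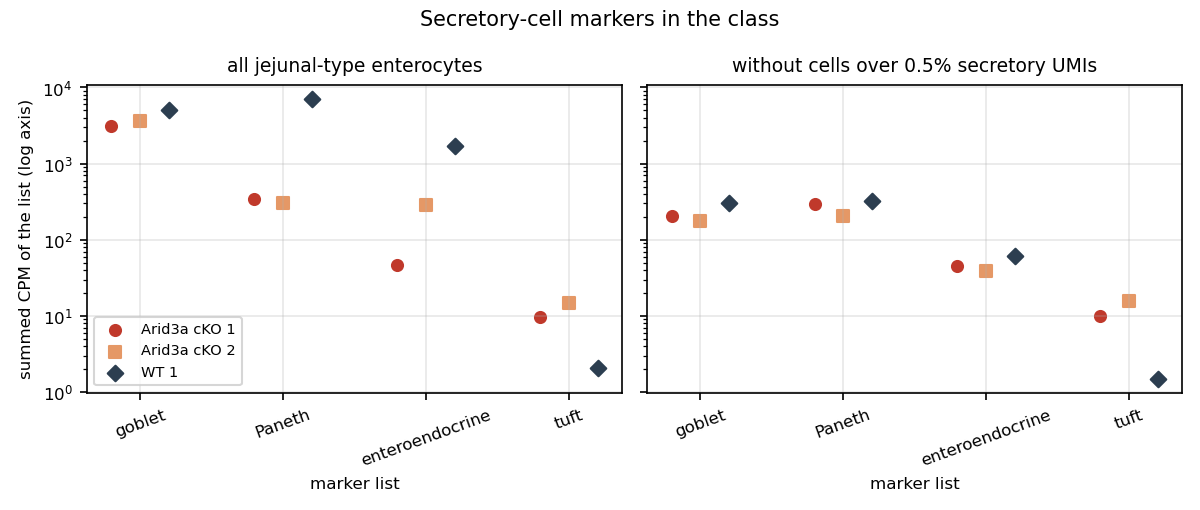
Summed level of the goblet, Paneth, enteroendocrine and tuft marker lists in the jejunal-type enterocytes of each library, in CPM on a log axis, with all cells (left) and without cells in which over 0.5% of UMIs came from these lists (right). The Paneth sum of the WT library fell from 7161 to 326 CPM when 31 of its cells were left out.

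Arid3a cKO and WT members differed in few genes. Of 4799 genes at a mean of at least 20 CPM, 78 (1.63%) passed an adjusted p under 0.05 in edgeR's quasi-likelihood test on the summed UMIs, 25 higher (0.521%) and 53 lower (1.1%) in the cKO libraries. The test has 1 residual degree of freedom and assumes that the lone WT library varies like the cKO libraries. Without the 49 cells, 169 of 4761 genes passed (3.55%), 73 higher (1.53%) and 96 lower (2.02%), and they included all 25 of the higher and 40 of the 53 lower genes. DESeq2 called 75 of 4799 genes (1.56%), 31 higher (0.646%) and 44 lower (0.917%). By size alone, 30 genes (0.625%) were at least 2-fold apart from WT in both cKO libraries on the log2(CPM + 5) scale, 5 higher (0.104%) and 25 lower (0.521%), and 17 without the 49 cells (0.357%), 5 higher (0.105%) and 12 lower (0.252%). In the opposing enterocytes edgeR called 24 of 4826 genes (0.497%), 10 higher (0.207%) and 14 lower (0.29%). Without the opposing cells rich in secretory markers it called 143 of 4833 genes, 42 higher and 101 lower. The label genes outside the rule, Lct and Apoa4, were not among the 78 genes called in the members. Lct had a log2 fold change of 0.12 ± 0.10 (SE) and Apoa4 one of 0.50 ± 0.13. Over 10 settings of the processing, Lct was called in 0 and Apoa4 in 3. The 6 jejunal rule genes chose the members. A comparison of them within the members therefore cannot decide whether they changed between the genotypes.

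Leaving the secretory genes aside, most calls of a list fell in genes of MHC class II antigen presentation and the response to interferon gamma. Of 14 genes of that list that were tested, 9 fell (11 without the 49 cells), against 1.1% of all tested genes (2.02%), and all 16 genes of the list at 5 CPM or more were lower in both cKO libraries. The median log2 ratio of those 16 was -0.80, against -0.01 over all genes. Cd74, the invariant chain that escorts MHC class II molecules, was at 69.2 and 47.1 CPM in the cKO members and at 407 CPM in the WT members (log2 fold change -2.82 ± 0.18, edgeR adjusted p = 0.000207). It was detected in 38.4% and 30.6% of the cKO members and in 82.3% of the WT members. H2-Aa, H2-Ab1 and H2-Eb1, the chains of the class II molecules, were at 21.0 and 10.4 against 87.6 CPM, at 94.7 and 55.2 against 234 CPM and at 45.2 and 32.8 against 128 CPM. With DESeq2, H2-Aa and H2-Ab1 no longer passed (adjusted p = 0.118 and 0.381). The interferon-induced GTPase gene Igtp was at 22.2 and 15.8 against 68.0 CPM. The class I genes B2m, H2-K1 and H2-D1 had log2 fold changes of -0.11, -0.10 and -0.10 and were not called.

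This fall was not confined to the members. In the stem comparison cells Cd74 was at 71.7 and 39.9 CPM in the cKO libraries and 365 CPM in the WT library, and in the opposing enterocytes at 76.3 and 54.6 against 284 CPM (edgeR adjusted p = 0.00288 there). The summed immune markers given above were highest in the WT members, where Ccl5, Gzma, Cd3e and Lyz2 had 4, 3, 2 and 1 UMIs, while Ptprc, which encodes CD45, had 6, 0 and 0 UMIs, Cd79a 1, 1 and 0, and Tyrobp and Cd3g none. The part of such cells in the result was not tested.

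Antimicrobial and lower-villus genes showed a mixed picture. Of 10 lower-villus genes 3 fell in the main comparison and 4 without the 49 cells, against 1.1% and 2.02% of all tested genes. Reg3g, a lectin that kills Gram-positive bacteria, fell from 2759 CPM in the WT members to 984 and 710 CPM (log2 fold change -1.72 ± 0.17, edgeR adjusted p = 0.00266). Gpx2, a glutathione peroxidase of the crypt and lower villus, was at 192 and 191 against 374 CPM, and Dmbt1 at 96.9 and 114 against 187 CPM; both fell. Reg3b was at 3443 and 2051 CPM against 5520 CPM, with an edgeR adjusted p of 0.140, and 0.000283 without the 49 cells. Reg1 went the other way, at 9418 and 8874 against 6555 CPM, and was not called in either. The cells varied widely in this trait: the summed Reg3b and Reg3g level of the middle 80% of WT members ran from 344 to 21219 CPM. Reg3g was also lower in the cKO libraries outside the members. It was at 465 and 491 against 1647 CPM in the opposing enterocytes and at 84.3 and 94.4 against 208 CPM in the stem comparison cells.

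Of 10 heat shock chaperone genes tested, 4 fell (5 without the 49 cells), against 1.1% (2.02%) of all tested genes. Hsph1, a co-chaperone of the HSP70 family, was at 8.57 and 12.8 against 49.2 CPM (edgeR adjusted p = 0.00191). Hspa8, the constitutive HSP70, was at 524 and 622 against 960 CPM and Hsp90ab1, a constitutive HSP90, at 468 and 544 against 846 CPM. The classical inducible genes Hspa1a and Hspa1b did not follow: Hspa1a was at 68.0, 16.0 and 27.3 CPM, so that the WT library lay between both cKO libraries. The fall of Hsph1 was not confined to the members. It was at 41.7 and 60.7 against 160 CPM in the stem comparison cells. In the opposing enterocytes without cells rich in secretory markers it was at 15.2 and 19.2 against 74.7 CPM.

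Few fat handling genes rose. Of 21 tested, Cd36, a fatty acid transporter, was called in the main comparison, at 87.1 and 76.9 CPM against 54.6 CPM (log2 fold change 0.58 ± 0.10, edgeR adjusted p = 0.0471), and without the 49 cells Apob, Apoc2 and Apoc3 joined it, against 0.521% and 1.53% of all tested genes higher. Cd36 passed in 6 of 10 settings, with an adjusted p of up to 0.253 in edgeR after thinning and of 0.155 in DESeq2. These 3 genes encode apolipoproteins of chylomicrons. With all cells Apob was at 1836 and 1798 CPM against 1269 CPM and Apoc3 at 2629 and 2952 CPM against 1806 CPM, and neither passed (edgeR adjusted p = 0.0905 and 0.0876). Of the 21 genes, 15 were higher and 2 lower in both cKO libraries, with a median log2 ratio of 0.17. Carbohydrate genes had a median of 0.08 and none of 15 was called in the main comparison. Pck1, the gate of gluconeogenesis, passed in 3 of 10 settings, among them that without the 49 cells (158 and 195 against 113 CPM with all cells). In the peptide list Slc36a1, a proton-coupled amino acid transporter, fell (48.9 and 41.3 against 77.1 CPM, edgeR adjusted p = 0.0182).

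Of 16 brush border genes only Muc3, a membrane mucin, was called, at 236 and 220 CPM against 119 CPM (log2 fold change 0.92 ± 0.10, edgeR adjusted p = 0.00473). None of 14 enterocyte transcription factors was called, among them Hnf4a, Cdx2 and Gata4, and Gata4 had a log2 fold change of -0.29. None of 7 calcium and iron genes, 12 general enterocyte genes or 12 villus-tip genes was called in the main comparison. Ada, adenosine deaminase, a villus-tip gene, had 18, 800 and 82 UMIs in the members, and 757 of the 800 in cKO replicate 2 came from 3 cells. Those 3 cells also held Nt5e at 154 CPM and Slc28a2 at 356 CPM, which the other members of that library had at 1.47 and 0.553 CPM. They held the duodenal S100g at 9608 CPM and the opposing rule gene Akp3 at 582 CPM as well, against 190 and 19.0 CPM. The S100g level given above for the members of that library includes them. In the WT library 1 member had 10 Ada UMIs, with no Nt5e or Slc28a2. The 3 cells were chosen after their values were seen, and made up 0.977% of the members of that library.

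**Figure D5:**
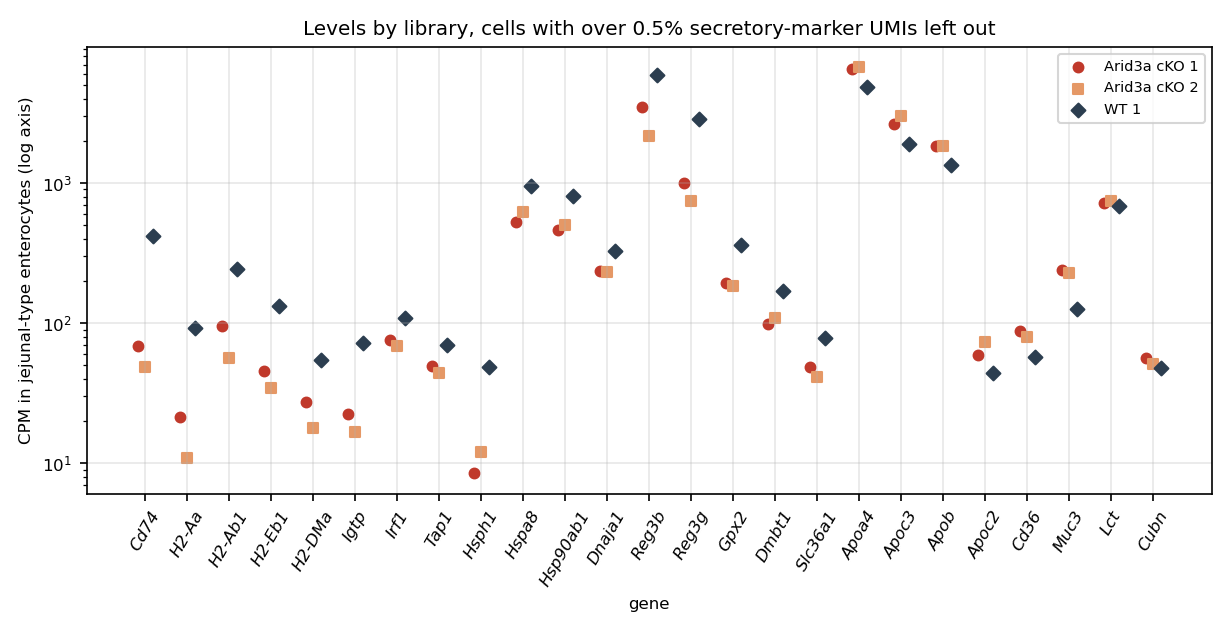
Level of genes of the MHC class II, chaperone, antimicrobial and fat handling lists, Muc3, Lct and Cubn in the jejunal-type enterocytes of each library without the 49 cells rich in secretory markers, in CPM on a log axis. The WT point lies above both cKO points for the MHC class II and chaperone genes and for Reg3g, and below both for Cd36, Apoc3 and Muc3.

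By size, the genes that rose most in both cKO libraries, outside the 12 rule genes, were Gm28438, Mir6236, Wdfy1, Sco2, Cyp2c29, Cyp4b1, Bok, Muc3, Cyp1a1 and Cyp2j6. Among them were 4 cytochrome P450 genes, which oxidise drugs, lipids and xenobiotics: Cyp2j6 was at 390 and 345 against 203 CPM, Cyp4b1 at 51.8 and 47.8 against 23.6 CPM, Cyp1a1 at 47.1 and 52.1 against 25.8 CPM and Cyp2c29 at 31.1 and 36.3 against 12.7 CPM. Sco2, a factor that assembles cytochrome c oxidase, was at 123 and 102 against 46.7 CPM, and Wdfy1 at 43.5 and 41.1 against 16.1 CPM. Some of these rises were not confined to the members. In the opposing enterocytes Muc3 was at 162 and 192 against 72.6 CPM and Wdfy1 at 41.3 and 39.6 against 12.7 CPM. There Sco2 was at 79.4 and 88.1 against 39.7 CPM and Mir6236 at 95.1 and 80.8 against 32.4 CPM. Cyp2c29 differed little there, with log2 ratios of 0.05 and 0.13. In the stem comparison cells Mir6236 was at 40.8 and 23.9 against 15.3 CPM, but Muc3 at 19.1 and 18.6 against 22.9 CPM. The predicted gene Gm28438 had 1 UMI in the WT members against 145 and 104 CPM, and the mitochondrial gene mt-Nd3 was at 12.5 and 14.3 against 382 CPM. Both shifts were present in the other classes. Gm28438 was at 114 and 90.3 against 0 CPM in the opposing enterocytes and at 60.8 and 49.9 against 0.129 CPM in the stem comparison cells. The levels of mt-Nd3 were 9.58 and 12.3 against 355 CPM and 5.31 and 7.07 against 199 CPM. Both genes are reported as uncertain. Mitochondrial genes share sequence with nuclear copies, and whether the counting split their reads was not tested.

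The largest falls of the main comparison were in genes of other cell types. Cck and Gcg, hormones of enteroendocrine cells, were at 4.74 and 3.84 against 866 CPM and at 1.27 and 0.823 against 153 CPM, and the Paneth cell defensin genes Defa30, Defa29, Defa24 and Defa17 fell too, with Defa24 at 203 and 169 against 3909 CPM. Gm14851, AY761184, mt-Nd3 and Gm7861 completed the list. These calls moved with the Paneth and enteroendocrine sums of the WT members given above. Cck, Gcg and the defensins were not among the 10 genes named without the 49 cells. Some were still called lower: Defa30 and AY761184 were called in all 10 settings. Their log2 fold changes came as near to 0 as -0.918 and -0.722. Without the 49 cells the same rule named mt-Nd3, Cd74, H2-Aa, Hsph1, Reg3g, Igtp, H2-Eb1, H2-Ab1, Mt1 and Gstm1, and added Guca2a, the precursor of the gut peptide guanylin, to the genes that rose. In that comparison Mt1, a metallothionein, was at 278 and 225 against 688 CPM, and Gstm1, a glutathione transferase, at 266 and 255 against 639 CPM. Also called lower there, and named after their values were seen, were the cholesterol synthesis and transport genes Hmgcs1, Insig1, Msmo1, Cyp51, Stard4, Pmvk and Idi1, with Hmgcs1, which encodes an early enzyme of the pathway, at 64 and 49.9 against 104 CPM. No list of such genes was drawn up, so nothing is said of the others.

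Whether Arid3a cKO acted differently on the members than on the opposing enterocytes was tested by the interaction of class and genotype, with the library as a block. With all cells 6 of 4824 genes were called (0.124%): Clca1, Muc2 and Tff3, which are goblet genes, the enteroendocrine gene Chgb, S100a6 and the water channel gene Aqp8. Aqp8 was the only one with a higher cKO effect in the members, by 1.27 on the log2 scale (0.0207% of the genes). With no low-count filter 85 of 21225 genes were called (0.4%), 19 of them higher in the members (0.0895%), and with 500 genes and 25% mitochondrial UMIs 1 of 4852 (0.0206%), which was lower. Without the cells rich in secretory markers 54 of 4804 genes were called (1.12%), 36 of them with the higher effect in the members (0.749%). In that fit edgeR's prior degrees of freedom were infinite, so all genes shared the same variance trend and the p-values reflect no spread of their own. Lct differed there by 0.36 ± 0.09 on the log2 scale (edgeR adjusted p = 0.0157) and Apoa4 by 0.40 ± 0.11 (edgeR adjusted p = 0.0223). The Lct ratio of cKO to WT was positive in the members (0.09) and negative in the opposing enterocytes (-0.26), and neither was called. Reg3b differed by 1.54 ± 0.10, as it fell by 1.06 in the members and by 2.52 in the opposing enterocytes. Cd74 differed by -0.65 ± 0.09, as it fell further in the members. With all cells the same 4 genes were not called.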

How the data were processed

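The files hold UMI counts per gene and barcode for 51912 features in 3 libraries; the authors deposited these counts as raw matrices made with CellRanger 5.0.0 per the file headers, and the genome build of these mouse libraries is uncertain, since the submitters' processing notes name only human builds. Barcodes with at least 1000 genes and at most 15% mitochondrial UMIs were kept (2134, 1550 and 1910 in Arid3a cKO replicates 1 and 2 and WT), which differ in depth by the values given above. Cells are not replicates, so UMIs were summed over the cells of a class in each library and tested with edgeR 4.0.16 (quasi-likelihood, TMM, genes at a mean of at least 20 CPM, Benjamini-Hochberg adjusted p under 0.05), with DESeq2 1.42.0 as an alternative, in R 4.3.3. The interaction fit used 6 sums with the library as a block. Log2 ratios used CPM + 5. Intervals are exact at 95% and cover counting error only. No doublets were removed in the main analysis; Scrublet was run in scanpy 1.11.5, its automatic threshold changed with the number of computing threads and was not used, and removing the 5% highest scores was an alternative. The edgeR steps were tested on simulated data.

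The members and gene lists were chosen with earlier results of these data known. Genes named between genotypes were up to 10 in each direction outside the 12 rule genes, ranked among the called genes by whichever of both cKO log2 ratios was nearer 0. Genes named between classes were up to 10 in each direction at a mean of at least 50 CPM, by the smallest ratio of the 3 libraries. Gene lists, Arid3a and the rule genes were named as well. Other alternatives were the rule with 3 or 5 genes, 500 genes with 25% mitochondrial UMIs, thinning to 21000 UMIs, no low-count filter, scaling by library size and leaving out each cKO library. Promoters came from RefSeq (GRCm38.p6). Nothing in the labels says that the libraries came from separate animals, so p-values may measure technical spread. Some called genes are not reported here.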

Additional observations from a re-analysis of the deposited data

Results flagged for a closer look

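The effect of Arid3a cKO differed between the jejunal-type and the opposing enterocytes by edgeR's interaction test in 6 genes. The difference, jejunal-type minus opposing, was -3.81 for Clca1, -2.58 for Muc2, -2.85 for Tff3, -5.09 for Chgb, -3.98 for S100a6 and 1.27 for Aqp8 on the log2 scale. Clca1, Muc2, Tff3 and Chgb are goblet or enteroendocrine genes, and the cells rich in such RNA numbered 6, 12 and 31 among the jejunal-type and 7, 5 and 3 among the opposing enterocytes of cKO replicate 1, cKO replicate 2 and WT; their part in the result was not tested gene by gene.

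Barcodes with at least 1000 genes but over the mitochondrial limit, which the report did not use, also held cells that met the rule: 544 of 1937 in cKO replicate 1, 497 of 2077 in cKO replicate 2 and 832 of 3206 in WT. These were 28.1%, 23.9% and 26.0% of such barcodes, so that WT lay between both cKO libraries. They were 58.3%, 46.4% and 70.3% of the barcodes there that met either rule, and their median depth was 10342, 10302 and 10654 UMIs.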

How the results depend on the processing

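The gap in the share of jejunal-type enterocytes, cKO mean minus WT, was -4.90 percentage points. It was -3.40 with at least 5 jejunal genes, -6.71 with at least 3, -5.76 with 500 genes and 25% mitochondrial UMIs, -5.71 after thinning, -4.06 without cells rich in secretory markers, -2.62 without the comparison to the opposing genes and -17.7 as a share of both enterocyte classes, and ranged from -5.38 to -4.42 with 1 cKO library left out. The 78 called genes became 136 with at least 3 jejunal genes, 169 without the secretory-rich cells and 309 with no low-count filter. Genes at least 2-fold apart in both cKO libraries numbered 30, or 17 without those cells and 85 at a log2 ratio of 0.5, and 37 to 46 with 1 cKO library left out (46 without cKO replicate 2). The interaction's 6 genes became 85 with no filter, 1 with 500 genes and 25%, and 54 without the secretory-rich cells; the fits that gave 85 and 54 had infinite prior degrees of freedom.

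The fat list's median of 0.17 was 0.22 with 500 genes and 25%, 0.13 after thinning, 0.12 without the secretory-rich cells and 0.20 to 0.24 with 1 cKO library left out. The MHC class II median of -0.80 was -1.01 after thinning, -0.87 without the highest doublet scores, -0.98 with a pseudocount of 1 and -0.72 at a mean of at least 20 CPM, and -0.83 to -0.76 with 1 library left out. With 1 cKO library left out, the heat shock median ran from -0.62 to -0.40, lower villus from -0.27 to -0.10, carbohydrate from 0.03 to 0.14 and peptide from -0.09 to 0.12. Lyz1 turned from -3.23 to 0.39 without the secretory-rich cells and Zg16 from -0.26 to 1.49 after thinning. The cause of these changes was not tested. No paired analysis was possible because the genotypes share only replicate number 1.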
